A study of Homo sapiens with 4 samples.

Results

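The genes described here are MKI67, which encodes the proliferation antigen Ki-67, and 59 genes of mitosis, all 60 of a fixed list of gene names and all found among the 50868 genes of the deposited expression table. They were measured by mRNA sequencing in KBM5, a human BCR-ABL-positive chronic myeloid leukemia cell line of blast crisis origin. There were 4 libraries, 1 for each of the control labelled CTR, DSF, IM and the combination IM-DSF, all from the same line. The labels do not spell out the drug codes, which are read here as disulfiram (DSF) and imatinib (IM), an inhibitor of the BCR-ABL kinase, and no dose or time was found in the labels. Levels are in FPKM, which divides a gene's fragments by its length and by the depth of the library, so that they can be set side by side between libraries. Between genes they compare only roughly, because the gene lengths used are not stated. Lengths recovered from the values were 5941 bases for AURKB, 1413 for CDC20 and 3605 for TPX2. The exon lengths of these genes in the GENCODE 29 annotation are 2241, 2038 and 3605 bases. With 1 library per group no difference has a replicate check and nothing was tested, and each interval below is a 95% interval for counting error only. All 60 members were among the 11004 genes whose mean reached 1 FPKM, and between 184 and 12176 fragments lay behind each of their values.

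Mitotic genes are transcribed in a wave ahead of mitosis, in which FOXM1 and MYBL2 act with the MuvB complex on short promoter elements. Several products of these genes are degraded at mitotic exit by the anaphase-promoting complex (APC/C). CDK1 with cyclins A and B drives entry, Polo-like and Aurora kinases build the spindle, the checkpoint kinases hold the APC/C until every kinetochore is attached, and kinesins, condensins and cytokinesis factors move, compact and divide the chromosomes. Ki-67 coats mitotic chromosomes and is found in cycling but not in resting cells, which makes it a routine marker of proliferation in leukemia. In bulk RNA, fewer dividing cells and less transcript per dividing cell cannot be told apart.

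The libraries had denominators of 12.4 M (IM-DSF) to 15.8 M fragments (IM), where M is 1e+06. Of 9 myeloid markers 7 reached 1 FPKM, with summed levels of 1370.2 to 2106 FPKM, while KIT was listed at 0 and CD34 stayed below 1 FPKM. Erythroid, megakaryocyte and most lymphoid markers (17 of 19) stayed below 1 FPKM in every library. The 2 above it were CD4 and NKG7, and 1 of 7 fibroblast and endothelial markers, PECAM1, passed 1 FPKM. CD4 had 12.9, 19.3, 25.1 and 28.1 FPKM and PECAM1 1.37, 1.41, 1.95 and 4.23 FPKM, in the order CTR, DSF, IM and IM-DSF, so that both were highest where most mitosis genes were lowest. The summed level was lowest in CTR for myeloid, lymphoid, and fibroblast and endothelial markers. It was highest in IM for the first and in IM-DSF for the others. Lymphoid markers summed to 24.8 FPKM in CTR and 41.8 FPKM in IM-DSF, nearly all of it from CD4 and NKG7. Of the fibroblast and endothelial sum, PECAM1 made up 1.37 of 1.561 FPKM in CTR and 4.23 of 4.34 FPKM in IM-DSF. These 2 sums thus follow those genes and not the other markers of their lists. The part of these markers in the results was not tested.

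Most of the mitosis genes were lower with IM than without it, and most were lowest with IM and DSF together. In CTR they ran from 2.38 FPKM for CDC25C to 184 FPKM for CKS2. The levels of the 60 summed to 1713 (CTR), 1598 (DSF), 1349 (IM) and 1182 (IM-DSF) FPKM. Of the 60 genes 50 had their lowest level in IM-DSF, against 30.3% of all genes past the filter. In CTR 43 had their highest level, against 30.0% of all genes. The order CTR, DSF, IM, IM-DSF from high to low held for 36 of them, against 13.8% of all genes. MKI67 was the 1 member with the order IM, CTR, DSF, IM-DSF, and the share of all genes with that order was not counted. NUSAP1, TTK, CDC25C and BUB1B also each had an order that no other member had.

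**Figure D1:**
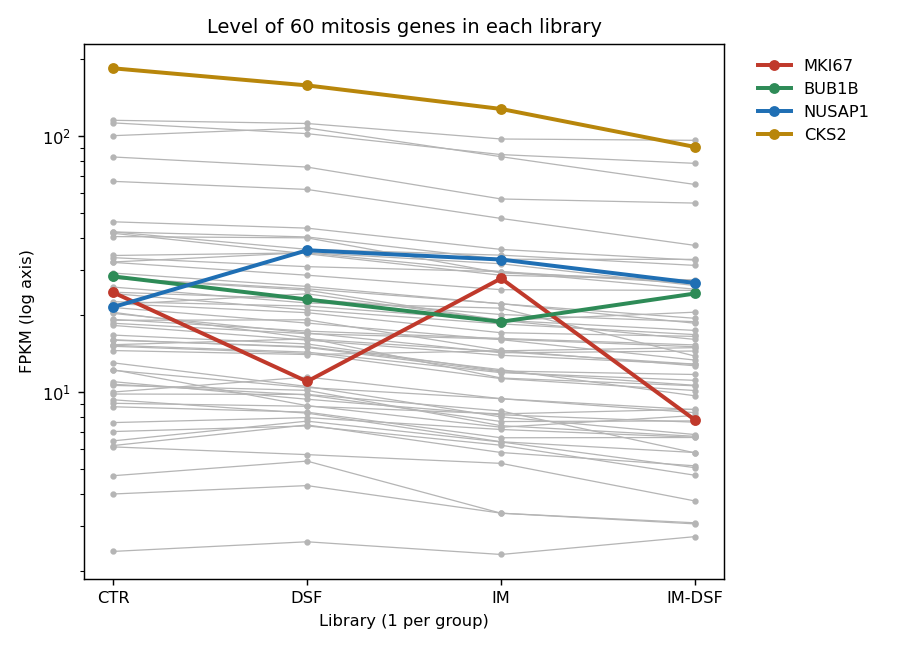
Level in FPKM (log axis) of each of the 60 genes in the 4 libraries; a line joins the values of 1 gene and stands for no time course. Most grey lines slope down from CTR to IM-DSF, while MKI67 stands at 24.5 (CTR), 10.99 (DSF), 27.8 (IM) and 7.76 (IM-DSF) FPKM, and NUSAP1 is lowest in CTR.

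MKI67 (ENSG00000148773; GRCh38.p14 chromosome 10, 128096659 to 128126385, minus strand) had FPKM values of 24.5 (CTR), 10.99 (DSF), 27.8 (IM) and 7.76 (IM-DSF). Both libraries with DSF were thus low and both without it high. These values rest on 6232, 2833, 7699 and 1694 fragments, and no other annotated gene overlaps MKI67 on either strand. The DSF level was 0.448 (0.429 to 0.469) times that of CTR, and the IM-DSF level was 0.2796 (0.265 to 0.295) times that of IM, so the level with DSF was lower both without and with IM.

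No other member was lower with DSF to this extent. On the scale of log2(FPKM + 1), used for all differences here, MKI67 differed by -1.09 in DSF minus CTR, where the other 59 had a median of -0.09 and the next lowest, the cytokinesis kinesin KIF14, stood at -0.43. In IM-DSF minus IM it differed by -1.71, against a median of -0.12 and a next lowest of -0.59, that of the kinetochore gene SPC25. Among all 11004 genes, 45 lay below MKI67 in the former pair of libraries and 19 in the latter. MKI67 was part of the choice of these genes, with this pattern known, so its place is a description.

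With IM alone MKI67 was higher, where nearly all the rest were lower. Its IM level was 1.13 (1.096 to 1.17) times that of CTR, while 58 of the other 59 genes were lower. In cells that also received DSF, its level with IM was 0.707 (0.665 to 0.751) times that without. The log2 difference there, -0.45, was within the range of the other members, with 21 of them lower and 38 higher. In IM added to DSF, then, MKI67 lay among the others.

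Set against the other members, the level of MKI67 differed between libraries. As a multiple of the geometric mean of the other 59 it was 1.26 (CTR), 0.592 (DSF), 1.79 (IM) and 0.555 (IM-DSF). Its rank among the 60 levels was 22 (CTR), 42 (DSF), 16 (IM) and 45 (IM-DSF). Within 1 library these ranks and multiples depend on the gene lengths used, which are not stated. TOP2A, the topoisomerase that disentangles sister chromatids, had FPKM values of 115 (CTR), 112 (DSF), 97.3 (IM) and 96.2 (IM-DSF). The MKI67 level was 0.213 of that of TOP2A in CTR and 0.0807 of it in IM-DSF.

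The promoter of MKI67 holds letters that most other member promoters hold too. RefSeq promoters (GRCh38.p14, 250 bases before to 50 after the first listed start) matched 52 of the 60 genes. AURKA, BIRC5, BUB3, CENPM, FOXM1, TPX2, TTK and UBE2C were not matched. The core of the cell cycle homology region (CHR), searched as TTTGAA on both strands, was in 38 of the 52 member promoters (73.1%) and in 15.4% of 27305 promoters. The CCAAT box, the letters CCAAT on both strands, was also in 38 of 52, against 35.7% of all. Both were in 29 of the 52 (55.8%), against 6.08% of all, and the CHR variant TTCGAA was in 3 (5.77%), against 1.45%. A match is a description and not a binding site.

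The promoters of MKI67 and of the most abundant gene of 4 role groups are printed to show how these letters lie in them, 5′ to 3′ along the gene, with CHR cores and CCAAT boxes on either strand in capitals. They lie at chr10:128126374-128126673 (MKI67, minus strand), chr9:89310945-89311244 (CKS2, plus strand), chr1:43358731-43359030 (CDC20, plus strand), chr17:40417847-40418146 (TOP2A, minus strand) and chr20:43666864-43667163 (MYBL2, plus strand). MKI67 has 2 CHR cores, which begin at -47 and -29 from the start site, and 2 CCAAT boxes, of which the second shares its first base with the last base of a CHR core. CKS2 has 1 CHR core, CDC20 and TOP2A have 2 each, and MYBL2 holds none of these letters.
MKI67: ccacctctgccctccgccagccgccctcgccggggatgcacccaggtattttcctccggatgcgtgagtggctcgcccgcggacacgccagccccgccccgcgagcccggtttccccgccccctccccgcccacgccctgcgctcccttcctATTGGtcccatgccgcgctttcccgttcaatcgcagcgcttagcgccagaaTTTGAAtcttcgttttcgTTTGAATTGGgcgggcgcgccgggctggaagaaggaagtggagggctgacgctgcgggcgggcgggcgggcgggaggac
CKS2: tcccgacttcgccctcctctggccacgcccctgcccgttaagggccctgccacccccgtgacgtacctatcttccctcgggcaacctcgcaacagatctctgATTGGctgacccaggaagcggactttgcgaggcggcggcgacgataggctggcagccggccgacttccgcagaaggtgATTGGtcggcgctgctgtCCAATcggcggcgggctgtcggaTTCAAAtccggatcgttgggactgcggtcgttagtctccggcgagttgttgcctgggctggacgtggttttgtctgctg
CDC20: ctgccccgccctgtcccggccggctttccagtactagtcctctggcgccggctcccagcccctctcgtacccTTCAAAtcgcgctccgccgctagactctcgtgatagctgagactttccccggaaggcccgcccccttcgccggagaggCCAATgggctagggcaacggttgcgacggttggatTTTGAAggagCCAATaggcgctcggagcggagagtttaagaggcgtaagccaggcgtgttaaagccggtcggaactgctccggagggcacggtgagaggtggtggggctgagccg
TOP2A: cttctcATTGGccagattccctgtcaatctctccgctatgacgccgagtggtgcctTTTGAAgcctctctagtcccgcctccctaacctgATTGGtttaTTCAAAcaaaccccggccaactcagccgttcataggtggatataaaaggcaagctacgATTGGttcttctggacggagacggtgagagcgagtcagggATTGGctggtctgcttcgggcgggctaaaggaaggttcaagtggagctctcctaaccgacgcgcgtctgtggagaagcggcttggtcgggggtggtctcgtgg
MYBL2: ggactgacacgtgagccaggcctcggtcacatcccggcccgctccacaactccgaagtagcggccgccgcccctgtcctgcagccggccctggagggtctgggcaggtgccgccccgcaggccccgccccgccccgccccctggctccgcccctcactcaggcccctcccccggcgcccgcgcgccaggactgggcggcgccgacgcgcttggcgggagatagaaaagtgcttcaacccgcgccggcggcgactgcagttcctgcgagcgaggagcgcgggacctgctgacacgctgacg
Members with a CHR core were set beside those without. In IM minus CTR the 38 with it had a median log2 difference of -0.33 and the 14 without it -0.37, and in DSF minus CTR the medians were -0.10 and -0.07. They were -0.12 and -0.14 in IM-DSF minus IM, -0.43 and -0.56 in IM-DSF minus CTR, and -0.32 and -0.45 in IM-DSF minus DSF. MKI67 belongs to the 38, as does NUSAP1. The 14 lack the letters TTTGAA, but BUB1 and KIF22 among them hold the variant TTCGAA. The split is thus by these letters alone and does not separate genes with and without a working CHR.

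With IM alone, the members were lower by small amounts. All but 2 of the 60 genes were lower (58 of 60, against 46.9% of all genes), with a median log2 difference of -0.34 where all genes had 0.02. The interval of the ratio lay below 1 for 48 members (80.0%, against 29.5% of all genes with a ratio interval). Intervals are narrower for genes with more fragments, and 57 of the 60 members had a mean of at least 5 FPKM. The shares of all genes given beside interval counts were not matched for level. By size, 8 members were lower by at least 0.5 log2 units (13.3%, against 5.67% of all) and 0 by at least 1 log2 unit (against 0.891%). Those 8 were AURKA, KIF14, PLK1, BUB1B, MAD2L1, CCNA2, CCNB1 and CKS2. The pair IM-DSF and DSF shares no library with IM and CTR. There 57 of 60 were lower (against 48.3% of all), with a median of -0.39, 56 had an interval below 1 (against 29.4%) and none above 1 (against 31.4%). By at least 0.5 log2 units 15 were lower there (6.92% of all genes were) and by at least 1 log2 unit 0 (1.05%). The interval lay below 1 in both pairs for 47 of the 60 (78.3%, against 18.2% of all genes), and above 1 in both for none (against 20.2%). MKI67 and NUSAP1 had an interval above 1 in IM against CTR (33.8% of all genes did), and both had one below 1 in IM-DSF against DSF (3.57% of all genes did so, and 3.06% the reverse, with no member).

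With DSF alone, the members other than MKI67 differed less from CTR than with IM by their median. Of the 60 genes 45 were lower (against 50.0% of all), with a median of -0.09, and 32 had an interval below 1 (against 22.4%). MKI67 was the 1 member lower by at least 0.5 log2 units (2.81% of all genes were) or by at least 1 log2 unit (0.573%). The interval lay above 1 for 7 members (against 22.6%), namely AURKB, ESPL1, INCENP, KIFC1, MYBL2, NUSAP1 and SPC24. The pair IM-DSF and IM shares no library with DSF and CTR. There 51 of 60 were lower (against 50.3%), with a median of -0.12, and 34 had an interval below 1 (against 22.8%). The interval lay below 1 in both pairs for 19 members (31.7%, against 7.27% of all), and above 1 in both for none (against 7.40%). In IM-DSF against IM it lay above 1 for ASPM, BUB1B and KIF14 (against 22.1%), and MKI67 and SPC25 were lower by at least 0.5 log2 units (against 4.65%), MKI67 alone by at least 1 log2 unit (against 1.04%). An interval above 1 in the former pair and below 1 in the latter was seen for 6 members (against 4.48%), and the reverse for 2 (against 4.19%).

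Large differences upward were rare among the members. NUSAP1 was the 1 member higher by at least 0.5 log2 units in DSF than in CTR (3.49% of all genes were) and in IM than in CTR (9.38%). No member was higher by that much in IM-DSF minus CTR (12.2% of all), IM-DSF minus IM (3.19%) or IM-DSF minus DSF (7.66%). At least 1 log2 unit was reached upward by none of the 60 in the pairs DSF minus CTR (0.545% of all genes), IM minus CTR (1.54%), IM-DSF minus CTR (2.54%), IM-DSF minus IM (0.700%) and IM-DSF minus DSF (1.33%).

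The sizes of the differences were also set side by side across members. Across the 59 genes other than MKI67, the log2 differences of DSF minus CTR and of IM-DSF minus IM had a Pearson's r of -0.23 and a Spearman's rho of -0.19, and those of IM minus CTR and IM-DSF minus DSF an r of 0.18 and a rho of 0.20. With MKI67 included the former r was 0.37, so that value rests on 1 gene. These are correlations across genes, which are not independent replicates and share their 4 libraries. Over all 11004 genes r was 0.06 for the former and 0.43 for the latter.

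**Figure D2:**
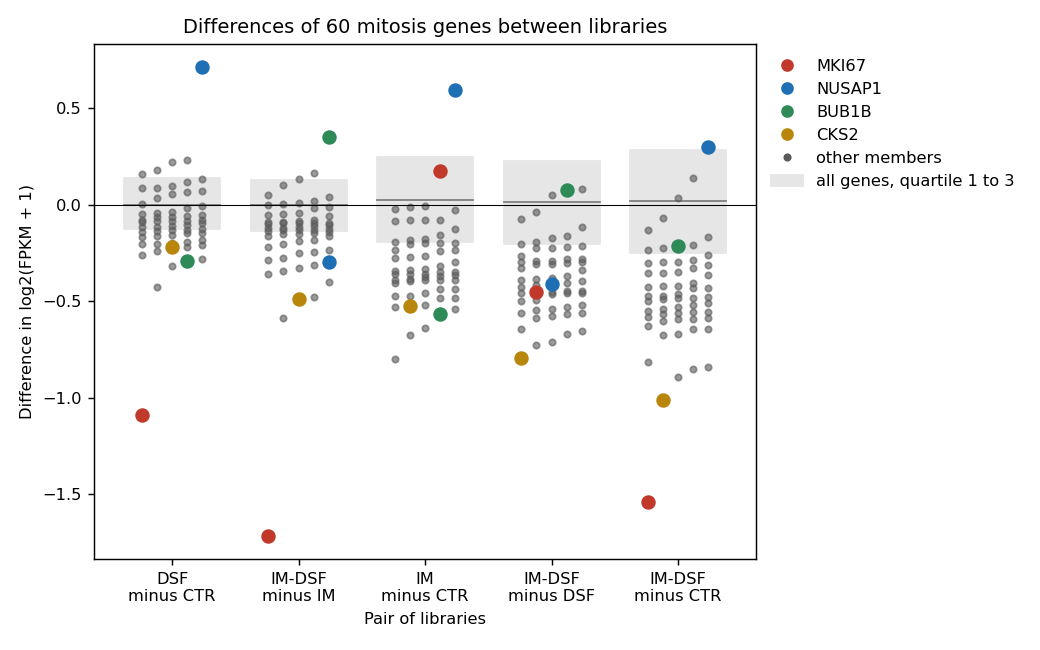
Difference in log2(FPKM + 1) of each member in 5 pairs of libraries, with quartile 1 to quartile 3 of all 11004 genes as a grey box and their median as a line. MKI67 lies below every other member in DSF minus CTR (-1.09), IM-DSF minus IM (-1.71) and IM-DSF minus CTR (-1.54), and above all but NUSAP1 in IM minus CTR (0.17).

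Most members were lowest with both drugs. Of the 60 genes 57 were lower in IM-DSF than in CTR (against 47.9% of all), with a median of -0.48 where all genes had 0.02. The interval lay below 1 for 56 (against 32.0%), and 25 were lower by at least 0.5 log2 units (41.7%, against 10.4%). At least 1 log2 unit was reached by MKI67 (-1.54) and CKS2 (-1.01), while 1.74% of all genes did so. The MKI67 level in IM-DSF was 0.317 (0.3001 to 0.334) times that of CTR. CDC25C, NUSAP1 and TTK were the 3 members not lower, and NUSAP1 had the 1 interval above 1 (against 34.8%).

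**Figure D3:**
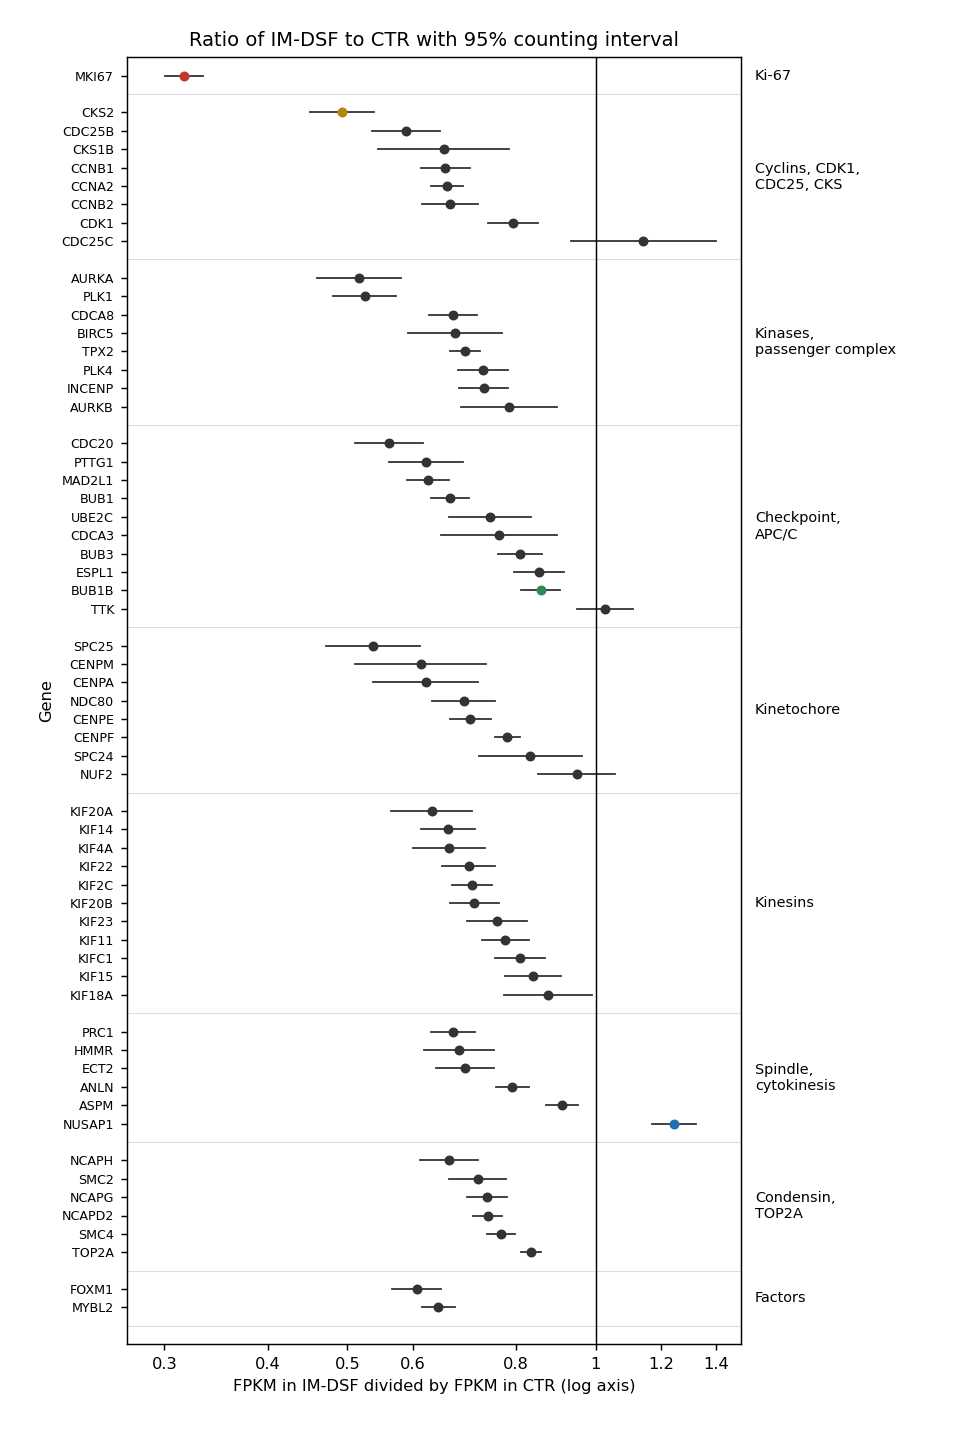
FPKM in IM-DSF divided by FPKM in CTR (log axis) for each member by role, with the 95% counting interval as a bar. Of 60 intervals 56 lie wholly below 1, that of MKI67 (0.3001 to 0.334) is the lowest, and that of NUSAP1 (1.17 to 1.32) is the 1 wholly above 1.

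Genes of the CDK1 engine were lower in IM-DSF than in CTR in 7 of 8 cases (against 47.9% of all genes). CKS2, a small subunit that binds CDK1 and the most abundant member in CTR, had FPKM values of 184 (CTR), 158 (DSF), 128 (IM) and 90.6 (IM-DSF), a ratio of IM-DSF to CTR of 0.493 (0.4501 to 0.539). Its level was lower in each treated library, and lowest with both drugs. CDK1, the kinase itself, had 19.2, 17.3, 16.2 and 15.3 FPKM in the same order, a ratio of 0.795 (0.741 to 0.852). Cyclin A2 (CCNA2) had 82.8, 75.6, 56.8 and 54.7 FPKM and cyclin B1 (CCNB1) 41.7, 34.6, 28.6 and 27.4 FPKM, so that both were lower with IM, while the addition of DSF to IM left ratios of 0.964 (0.919 to 1.01) and 0.959 (0.892 to 1.03), which include 1. Cyclin B2 (CCNB2) and CKS1B stood at 0.666 and 0.655 times CTR in IM-DSF. The phosphatases that activate CDK1 differed: CDC25B had 9.82, 9.78, 8.43 and 5.78 FPKM, and CDC25C had 2.38, 2.599, 2.32 and 2.72 FPKM, with a ratio of 1.14 (0.933 to 1.399). CDC25C overlaps FAM53C on the opposite strand, at 3.07 FPKM in CTR and 8.25 FPKM with both drugs. The kit was stranded, but whether the counting used strand is not stated, so reads of these 2 genes may have been mixed. The same holds for each of the 27 members with a gene on the opposite strand. On the same strand 14 of the 60 overlap another annotated gene.

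Among the mitotic kinases, those with the lowest ratios were AURKA and PLK1. AURKA, which matures centrosomes, had FPKM values of 20.5 (CTR), 16.3 (DSF), 11.3 (IM) and 10.6 (IM-DSF), and its IM level was 0.553 (0.498 to 0.615) times CTR, the lowest ratio of the 60 in that pair. PLK1, the Polo-like kinase of mitotic entry, had 12.997, 10.5, 7.99 and 6.82 FPKM, lower in every treated library than in CTR, and PLK4, which starts centriole duplication, had 15.2, 14.3, 11.9 and 11.1 FPKM. TPX2, the activator of AURKA, had 113, 102, 84.6 and 78.2 FPKM and a ratio of IM-DSF to CTR of 0.695 (0.666 to 0.725).

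In the chromosomal passenger complex, which corrects faulty attachments, 2 of 4 genes had an interval above 1 in DSF against CTR (against 22.6% of all genes). AURKB, its kinase, had FPKM values of 6.44 (CTR), 7.69 (DSF), 6.38 (IM) and 5.06 (IM-DSF), so that DSF alone was the highest and IM-DSF the lowest library. INCENP, its scaffold, had 21.9, 24.2, 19.03 and 16.04 FPKM and was also highest in DSF, and BIRC5 (survivin) had 7.004, 7.37, 6.19 and 4.73 FPKM, with a ratio of DSF to CTR whose interval includes 1. CDCA8 (borealin) had 40.5, 40.005, 29.2 and 27.2 FPKM, the order most members had. For AURKB, INCENP and BIRC5 the ratio of IM-DSF to DSF was 0.658 (0.578 to 0.747), 0.663 (0.619 to 0.7100) and 0.642 (0.563 to 0.7296), while the ratio of IM to CTR was nearer 1, at 0.9903, 0.867 and 0.884.

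In the spindle checkpoint the members differed from each other. CDC20, the activator of the APC/C that the checkpoint holds back, had FPKM values of 66.5 (CTR), 61.8 (DSF), 47.6 (IM) and 37.4 (IM-DSF), a ratio of IM-DSF to CTR of 0.562 (0.511 to 0.617). MAD2L1 (MAD2), which binds CDC20, had 27.8, 24.98, 19.1 and 17.4 FPKM, and the kinase BUB1 29.2, 25.8, 22.1 and 19.4 FPKM, both lowest in IM-DSF. TTK (MPS1), the kinase at the head of the checkpoint, had 14.5, 14.004, 14.5 and 14.9 FPKM, and its interval included 1 in all 5 pairs of libraries. BUB1B (BUBR1), an inhibitor of CDC20, had 28.3, 22.98, 18.8 and 24.3 FPKM: it was lower with either drug alone, while IM-DSF stood at 1.29 (1.22 to 1.37) times IM. BUB1B has a same-strand overlap with the read-through gene BUB1B-PAK6, listed at 0 in all 4 libraries. BUB3, their partner, stood at 0.8096 (0.762 to 0.8602) times CTR in IM-DSF.

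Factors of sister separation were lower to different extents. Securin (PTTG1), the inhibitor of separase, had 21.4, 18.6, 16.01 and 13.3 FPKM, and separase itself (ESPL1) had 9.99, 11.4, 9.41 and 8.53 FPKM, highest in DSF. UBE2C, the ubiquitin-conjugating enzyme of the APC/C, had 22.1, 20.4, 17.04 and 16.5 FPKM, and CDCA3 had 3.99, 4.31, 3.36 and 3.05 FPKM. The IM-DSF level was 0.623 times that of CTR for PTTG1, 0.853 for ESPL1, 0.745 for UBE2C and 0.764 for CDCA3. Every interval lay below 1 (against 32.0% of all genes).

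At the kinetochore, the 4 subunits of the NDC80 complex, which holds microtubule ends and is assembled with 1 copy of each, had unequal differences. SPC25 had FPKM values of 25.7 (CTR), 22.3 (DSF), 21.3 (IM) and 13.8 (IM-DSF), below CTR in every treated library and lowest in IM-DSF, with a ratio of IM-DSF to IM of 0.6496 (0.568 to 0.741). NDC80 had 24.2, 20.9, 18.4 and 16.8 FPKM, and SPC24 had 6.17, 7.43, 5.800 and 5.15 FPKM, highest in DSF. NUF2 had 9.03, 8.79, 8.21 and 8.56 FPKM, and its interval included 1 in all 5 pairs. The ratios of IM-DSF to CTR were 0.537 (0.471 to 0.612) for SPC25 and 0.948 (0.852 to 1.05) for NUF2, which do not overlap. CENPF, a large outer kinetochore protein and the most abundant of this group, had 42.2, 40.3, 32.99 and 32.97 FPKM, the same level in IM and IM-DSF. CENPE, a kinetochore motor, CENPA, the centromeric histone, and CENPM stood at 0.705, 0.622 and 0.615 times CTR in IM-DSF. CENPA overlaps SLC35F6 on the same strand (2.23 to 2.53 FPKM), so its value is uncertain.

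All 11 kinesin motors were lower in IM-DSF than in CTR, with intervals below 1 (against 32.0% of all genes) and a median of -0.46. KIF2C, a microtubule depolymerase and the most abundant of them, had FPKM values of 46.2 (CTR), 43.7 (DSF), 36.04 (IM) and 32.7 (IM-DSF). KIF20A, a motor of the central spindle, had 10.6, 10.1, 7.38 and 6.71 FPKM and the lowest ratio of IM-DSF to CTR among them, 0.633 (0.565 to 0.708). KIF18A, which dampens chromosome oscillations, had 7.59, 7.94, 7.14 and 6.65 FPKM and the highest, 0.876 (0.775 to 0.989). KIF14 had 12.2, 8.84, 7.28 and 8.09 FPKM, with its lowest level in IM and a ratio of IM-DSF to IM of 1.11 (1.02 to 1.21). KIFC1, the minus-end-directed motor, had 32.2, 35.04, 31.7 and 26.04 FPKM, and KIF15, a motor that works beside KIF11, had 15.3, 16.1, 14.4 and 12.8 FPKM, both with their highest level in DSF, though for KIF15 the interval of the ratio to CTR includes 1. KIF15 overlaps TMEM42 on the same strand (2.23 to 4.61 FPKM), so its value is uncertain. KIF11 (Eg5), which pushes the spindle poles apart, KIF4A and KIF22, which ride on chromosome arms, KIF23 of centralspindlin and KIF20B lay between 0.664 (KIF4A) and 0.777 (KIF11) times CTR.

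NUSAP1, a protein that binds and bundles spindle microtubules, was the member with the largest differences upward. It had FPKM values of 21.4 (CTR), 35.8 (DSF), 32.9 (IM) and 26.7 (IM-DSF), so that CTR was its lowest library and every treated one was higher. The ratio to CTR was 1.67 (1.58 to 1.76) in DSF, 1.53 (1.45 to 1.62) in IM and 1.24 (1.17 to 1.32) in IM-DSF. Against each single drug the combination was lower, at 0.745 (0.705 to 0.787) times DSF and 0.8096 (0.767 to 0.855) times IM. Its value is uncertain, because 2 annotated genes, AC087721.1 (0 to 0.434 FPKM) and AC087721.2 (not used here), overlap it on the same strand.

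The other genes of the spindle and of cytokinesis were lower with IM. ANLN (anillin), the scaffold of the contractile ring, had 33.5, 30.9, 29.5 and 26.5 FPKM. PRC1, which bundles midzone microtubules, had 15.1, 14.1, 11.3 and 10.1 FPKM and a ratio of IM-DSF to CTR of 0.672 (0.631 to 0.715). ASPM, a spindle pole protein, had 22.5, 21.7, 19.03 and 20.5 FPKM, lowest in IM. ECT2, the exchange factor that activates RhoA for cytokinesis, and HMMR, a spindle assembly factor, stood at 0.694 and 0.683 times CTR in IM-DSF.

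All 6 genes of condensin and TOP2A were lower in IM-DSF than in CTR, with intervals below 1 (against 32.0% of all genes). IM-DSF relative to CTR stood at 0.664 (0.612 to 0.7202) for NCAPH, which had 19.1, 19.1, 14.5 and 12.7 FPKM, and between 0.719 and 0.767 for SMC2, NCAPG, NCAPD2 and SMC4. TOP2A had the ratio nearest 1 of this group, 0.835 (0.812 to 0.858). SMC2 and SMC4 form the core that condensin I and II share, and the other 3 are subunits of condensin I.

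The transcription factors of the programme were lower with IM and DSF together. FOXM1 had FPKM values of 15.9 (CTR), 15.03 (DSF), 12.2 (IM) and 9.66 (IM-DSF), a ratio of IM-DSF to CTR of 0.606 (0.567 to 0.649). MYBL2 (B-MYB) had 100.3, 108, 83.003 and 64.6 FPKM, highest in DSF and lowest in IM-DSF, a ratio of 0.645 (0.615 to 0.675). FOXM1 overlaps RHNO1 on the opposite strand, which had 3.31, 1.70, 3.51 and 1.79 FPKM, low in both libraries with DSF.

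**Figure D4:**
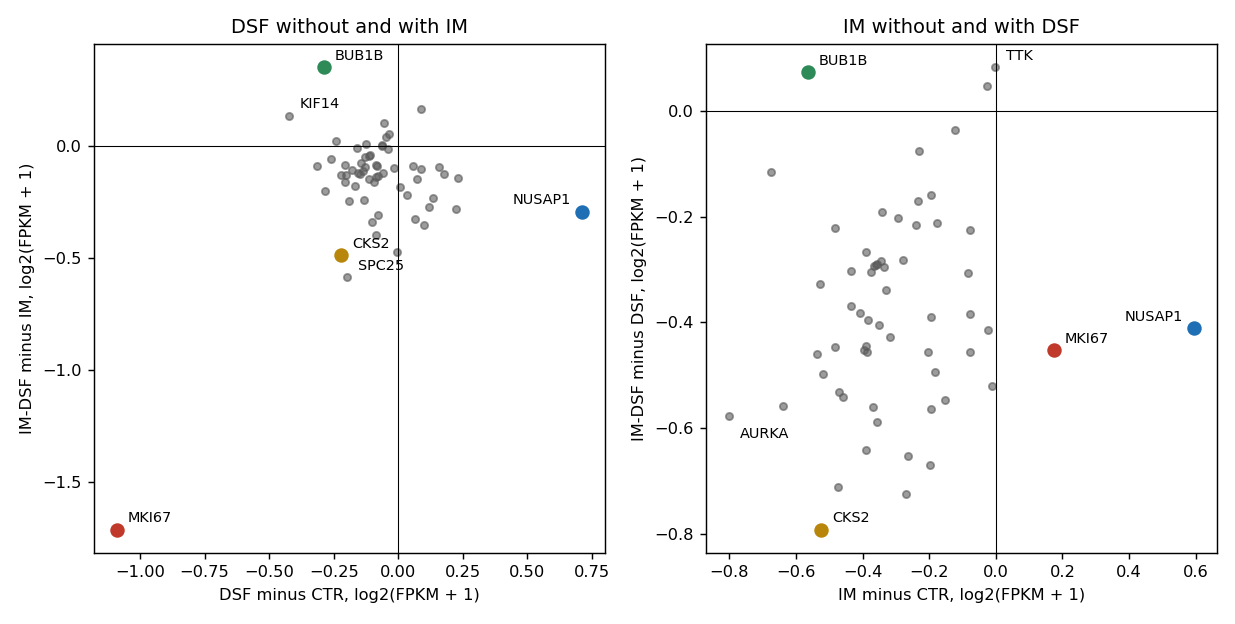
Left, the log2(FPKM + 1) difference of DSF minus CTR (x) against IM-DSF minus IM (y); right, IM minus CTR (x) against IM-DSF minus DSF (y), each point 1 member. MKI67 is alone at the lower left of the left panel (-1.09 and -1.71), BUB1B (-0.29 and 0.35) and NUSAP1 (0.71 and -0.29) lie in opposite corners, and on the right MKI67 and NUSAP1 are the 2 members to the right of 0.

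The difference of IM-DSF was close to the sum of the single-drug differences for the median member. The departure from that sum had a median of -0.01 over the 60 and of -0.01 over all 11004 genes. MKI67 departed by -0.63, lower than 58 of the other 59, while 544 of all genes (4.94%) had a more negative departure. NUSAP1 had the most negative departure, -1.01, and BUB1B the most positive, 0.64. All 3 comparisons in the departure use the same CTR library.

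Further lists of mitosis genes were read beside the 60. Of 25 other kinetochore genes 20 were lower in IM than in CTR (against 46.9% of all genes), 16 with an interval below 1 (against 29.5%), and the median was -0.18. SKA1, which couples kinetochores to microtubules, had FPKM values of 9.56 (CTR), 4.14 (DSF), 3.16 (IM) and 3.93 (IM-DSF), low in all 3 treated libraries, with a DSF difference of -1.04, close to that of MKI67. CENPW had 28.6, 25.7, 16.8 and 15.1 FPKM and SKA2 5.995, 5.22, 4.62 and 3.82 FPKM. The 3 further subunits of condensin II were all lower in IM-DSF than in CTR (against 47.9% of all genes). They stood at 0.589 (NCAPD3), 0.695 (NCAPG2) and 0.792 (NCAPH2) times CTR.

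The list of APC/C genes had a median near 0. Of 17 genes of the APC/C and its regulators 9 were lower in IM than in CTR (against 46.9% of all genes) and the median was -0.00. In IM-DSF minus CTR 10 were lower (against 47.9%) and the median was -0.13. UBE2S, the enzyme that extends its ubiquitin chains, was the lowest, with 22.9, 18.96, 14.1 and 10.5 FPKM. ANAPC13 had 6.69, 4.32, 7.18 and 4.26 FPKM, low in both libraries with DSF as MKI67 was, and ANAPC11, the RING subunit, had 1.37, 2.24, 2.13 and 2.41 FPKM, higher in each treated library. Of 10 cohesin genes 7 were lower in IM-DSF than in CTR (against 47.9% of all genes, median -0.22), led by CDCA5 (sororin, which protects cohesion), with 16.9, 15.8, 13.9 and 10.9 FPKM. WAPL, which releases cohesin, was higher, with 11.99, 14.6, 12.9 and 16.5 FPKM, and SMC1A, a core subunit, had 28.6, 28.2, 23.8 and 21.4 FPKM. Of 11 centriole and centrosome genes 9 were lower in IM-DSF than in CTR (against the same 47.9%, median -0.07). The interval lay below 1 for 5 of the 11 (against 32.0%) and above 1 for 2 (against 34.8%). Among the lower ones were the centriole assembly factor STIL, with 7.79, 7.34, 6.15 and 4.19 FPKM, and CEP55 of the midbody, with 17.4, 14.8, 11.9 and 11.3 FPKM. Gamma-tubulin, TUBG1, had 15.8, 17.6, 13.5 and 10.4 FPKM.

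Regulators of the programme and proteins that sit with Ki-67 were read next. Of 15 measured MuvB, DREAM and E2F genes 11 were lower in IM-DSF than in CTR (against 47.9% of all genes), with a median of -0.13. E2F3, an activator of the cycle, was higher in IM-DSF alone, with 5.35, 4.53, 4.25 and 10.1 FPKM, while E2F5 had 1.83, 1.403, 2.06 and 0.985 FPKM and LIN9, a MuvB subunit, 6.43, 5.52, 5.07 and 4.52 FPKM. Of 12 genes of the mitotic chromosome periphery, where Ki-67 resides with nucleolar proteins, 8 were lower in DSF than in CTR (against 50.0% of all genes), with a median of -0.12 and a lowest of -0.39. In IM minus CTR 10 of the 12 were lower (against 46.9%, median -0.39), where MKI67 was higher. RRS1, BOP1 and NCL, all of ribosome assembly, had 85.3, 77.6, 60.3 and 54.03 FPKM, 63.1, 59.7, 45.1 and 42.3 FPKM, and 183, 165, 129 and 129 FPKM. KIF15 is in this list and among the 60.

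Genes of S phase and of exit from the cycle had medians on opposite sides of 0 in IM minus CTR. All 15 S phase genes were lower in IM than in CTR with intervals below 1 (against 29.5% of all genes, median -0.40), and all 15 in IM-DSF than in CTR (against 32.0%, median -0.56). RRM2, a subunit of ribonucleotide reductase, had 32.5, 26.3, 20.3 and 17.3 FPKM, CDC6, a licensing factor, 18.97, 15.8, 13.3 and 10.6 FPKM, and cyclin E1 (CCNE1) 7.88, 7.09, 5.14 and 4.42 FPKM. Of 9 measured genes of cell cycle exit 7 were higher in IM than in CTR with intervals above 1 (against 33.8% of all genes, median 0.32), and 2 of them by at least 1 log2 unit (against 1.54%). The other 2 were lower in IM than in CTR, with intervals below 1 (against 29.5%). In IM-DSF against CTR 5 of the 9 had an interval above 1 (against 34.8%) and 1 had one below 1 (against 32.0%). CCNG2, an atypical cyclin of resting cells, had 1.45, 2.42, 6.29 and 5.06 FPKM, the antiproliferative factor BTG1 had 12.02, 15.6, 27.6 and 28.8 FPKM, and its relative BTG2 had 1.63, 1.89, 3.87 and 3.41 FPKM. All 3 were higher in both libraries with IM than in both without it.

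The 5 genes with the pattern most like that of MKI67 are in none of these lists. Likeness was the Euclidean distance over the 3 differences from CTR, among the 5101 protein-coding genes whose mean reached 5 FPKM. The nearest was LEPROTL1 (distance 0.29), with FPKM values of 14.8 (CTR), 5.07 (DSF), 16.04 (IM) and 4.38 (IM-DSF), followed by the zinc finger gene ZKSCAN1 (0.49), with 7.44, 2.03, 9.38 and 2.503 FPKM. ANKRD52, a regulatory subunit of a phosphatase, came next at 0.53, with 19.2, 8.14, 14.9 and 5.43 FPKM, then UQCR10, a subunit of respiratory complex III, at 0.77, with 51.4, 30.4, 40.5 and 23.6 FPKM, and NSD2, a histone methyltransferase, at 0.84, with 10.1, 6.11, 8.47 and 4.72 FPKM. All 5 were lower in both libraries with DSF than in both without it, as MKI67 was. This likeness comes from the choice, since the 5 were picked by these same differences. For the first 3, the ratio of DSF to CTR was 0.344 (0.3104 to 0.3801) for LEPROTL1, 0.273 (0.249 to 0.298) for ZKSCAN1 and 0.424 (0.395 to 0.454) for ANKRD52. LEPROTL1 overlaps DCTN6 on the same strand and is uncertain. The nearest member was SPC25, at a distance of 1.21 and in place 54 among those 5101 genes, followed by CKS2 (1.23) and PLK1 (1.34), and the farthest was NUSAP1 (2.61).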

How the data were processed

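The authors deposited 1 table of FPKM values with 1 column per library, per the file headers. Libraries were made with a stranded mRNA kit, per the labels' protocols. The submitters' processing notes list HISAT2 2.0.4 and GRCh38.p14. Counter, annotation, gene lengths and use of strand: not given in the sources used here. Members were matched by gene name. The members and lists were chosen with earlier results of these data known.

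Depth was recovered from single-exon genes of GENCODE 29, where FPKM times length was a whole multiple of 1 step within 0.05 for 98.9% to 99.1% of genes. For the other genes the shortest whole length, of at least 0.5 times the GENCODE 29 exon length, that made all 4 fragment numbers whole within 0.003 was taken, which succeeded for 10968 of 11004 genes (99.7%) and all 60 members. A multiple of that length would fit as well and give narrower intervals. A ratio is that of 2 FPKM values, and its 95% interval is the exact conditional binomial one from these fragment numbers. PCR copies make intervals too narrow. No count test was run, since each group has 1 library.

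Differences are of log2(FPKM + 1), which understates those of low genes. Genes needed a mean of at least 1 FPKM. Members are reported as lower by any size, by 0.5 or 1 log2 unit, or with a ratio interval below 1, each beside the share of all genes. All 60 are named, with values in each library for members past 1 log2 unit and, per role group, the most abundant and the ones with the lowest and highest IM-DSF minus CTR difference. Values of other members were added after they were seen. Of each further list up to 3 genes are named, those with the largest IM-DSF minus CTR difference. For MKI67 the 5 nearest genes and 3 nearest members are named. Scripts used Python 3.11.15, numpy 2.4.6, pandas 2.3.3, scipy 1.17.1 and matplotlib 3.10.9, and were tested on simulated data. The 7 alternatives changed the pseudocount (0.1), the filter (none, or 5 FPKM), the scaling (TPM, factors by median of ratios, factors by trimmed mean) or the genes used (protein-coding genes without same-strand overlap). Sequences are from RefSeq (GRCh38.p14).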

Additional observations from a re-analysis of the deposited data

Results flagged for a closer look

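For 9 members the same drug went opposite ways without and with the other drug, with both ratio intervals on opposite sides of 1. Each difference is between single libraries and was not tested.

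With DSF, 6 members (10.0%, against 4.48% of all genes) had a ratio of DSF to CTR above 1 and of IM-DSF to IM below 1. The reverse was seen for 2 members (3.33%, against 4.19% of all), so it was not more frequent among members than among all genes. The former were AURKB (1.19 and 0.793), INCENP (1.10 and 0.843), ESPL1 (1.14 and 0.906), KIFC1 (1.09 and 0.822), MYBL2 (1.07 and 0.779) and NUSAP1 (1.67 and 0.810). AURKB and INCENP are subunits of 1 complex. The latter were the checkpoint gene BUB1B (0.812 and 1.29) and the kinesin gene KIF14 (0.724 and 1.11).

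With IM, 2 members (3.33%, against 3.57% of all genes) had a ratio of IM to CTR above 1 and of IM-DSF to DSF below 1. They were MKI67 (1.13 and 0.707) and NUSAP1 (1.53 and 0.745). This pattern too was not more frequent among members than among all genes. No member had the reverse, which 3.06% of all genes had.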

How the results depend on the processing

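Under 7 alternatives 16 results gave 112 values, of which 108 stayed within the counting error of the reported value or, for a count, within 1.5 times of it. The other 4 kept their direction. The MKI67 difference was -1.65 in IM-DSF minus CTR and -1.83 in IM-DSF minus IM with a pseudocount of 0.1, and -1.17 in DSF minus CTR after rescaling to TPM. Without genes that overlap another on the same strand, 46 members remained, and the number lower by at least 1 log2 unit in IM-DSF than in CTR was 1 (MKI67) in place of 2, since CKS2 holds a microRNA gene. No scaling moved the median of all genes by over 0.1 log2 units. After rescaling to TPM, 46 of 60 members were lower in IM-DSF than in IM, in place of 51, and the median was -0.08. No paired analysis was possible because each group has 1 library, and no library could be left out. At these depths, a member with the fewest fragments, such as CENPM, had an interval from 0.511 to 0.737 for its ratio of IM-DSF to CTR.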
